A study of Mus musculus with 7 samples.

Results

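Ptgs2, Ptges, Nos2 and Sod2 encode the inducible enzymes of prostaglandin, nitric oxide and superoxide metabolism, and their RelA and RelB binding regions in mouse dendritic cells are described here. A binding region was taken for one of these 4 genes where the authors' table named that gene as its nearest and placed it within 100 kb of the transcription start site. The 4 genes were chosen with earlier results of these data known, though the rule itself used no measured binding. It found 24 of the 93611 regions in the table: 1 for Ptgs2, 8 for Ptges, 12 for Nos2 and 3 for Sod2. The authors' annotation puts 13 of them outside genes, 6 inside introns, 4 at promoters and 1 in a 3′ UTR, and 13 lie within 10 kb of the start. The farthest is 44696 bp upstream of Nos2, so no region of these genes lies beyond the 100 kb limit.

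Prostaglandin-endoperoxide synthase 2 (Ptgs2, also called COX-2) turns arachidonic acid into prostaglandin H2, and microsomal prostaglandin E synthase (Ptges) turns that product into prostaglandin E2. Inducible nitric oxide synthase (Nos2) makes nitric oxide from arginine, and the mitochondrial manganese enzyme Sod2 turns superoxide into hydrogen peroxide. All of them are classic genes that bacterial lipopolysaccharide (LPS) switches on in macrophages and dendritic cells through NF-κB. Both RelA and RelB belong to the family of subunits that make up NF-κB dimers: RelA is the main partner of the fast, canonical pathway, and RelB is best known from the slower, non-canonical pathway and is abundant in dendritic cells.

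The study asked how the loss of RelB changes where RelA binds DNA. Chromatin immunoprecipitation with sequencing (ChIP-seq) was done on dendritic cells grown from C57BL/6 bone marrow with GM-CSF and IL-4, from mice labelled RelBko or wild type (WT). RelA was precipitated 1 h after LPS at 10 ng/mL from RelBko and from WT cells. RelB was precipitated 1 h after the same dose from RelBko and from WT cells, and from untreated cells (0 h) of both genotypes. The input library, which is chromatin that was not precipitated, came from WT cells with no treatment or time given. Each condition is 1 library, so no difference below has a replicate check. No RelA library at 0 h was analysed here, nor one from cells without RelA. The labels do not describe the RelB allele, and the treatment text also names a reagent that is a CpG oligonucleotide, and the name LPS follows the sample titles.

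The 7 libraries held 13188833 to 35064429 reads, and the authors' values are RPKM, which scale the reads of a region to its length and to the library's total. Of all reads, 4.62% at 1 h and 7.41% at 0 h fell in the 93611 regions in the RelBko RelB libraries, against 42.4% and 38.4% in the WT RelB libraries and 3.52% in the input. The RelBko and WT RelA libraries had 37.2% and 37.9%. The RelBko RelB libraries therefore stood nearer to the input than to any other library. The member regions drew 2 to 14 reads each in the RelBko RelB library at 1 h and 3 to 26 in that at 0 h, against 4 to 289 and 1 to 309 in the WT RelB libraries. The regions of 9 dendritic and myeloid genes averaged 43.1 to 92.1 RPKM over the 6 ChIP libraries at each gene's strongest region, against 1.17 to 12.7 RPKM for 8 genes of B, T, erythroid and neutrophil cells. These are levels of binding, not of expression.

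The promoters of Ptgs2 and Sod2 are shown because both genes had binding at the start itself, with loads that differed between conditions. Windows of 250 bases before to 50 bases after the start were taken from RefSeq (GRCm38.p6) by gene symbol, and 3 of the 4 genes had an entry, Nos2 having none. Those starts were not compared with the mm9 starts of the binding table. Capitals mark each match to GGGNNNNNCC on either strand, the loose form of the NF-κB motif. The Ptgs2 window is chr1:150099781-150100080 on the plus strand and the Sod2 window is chr17:13007589-13007888 on the plus strand, both in GRCm38.p6.
Ptgs2: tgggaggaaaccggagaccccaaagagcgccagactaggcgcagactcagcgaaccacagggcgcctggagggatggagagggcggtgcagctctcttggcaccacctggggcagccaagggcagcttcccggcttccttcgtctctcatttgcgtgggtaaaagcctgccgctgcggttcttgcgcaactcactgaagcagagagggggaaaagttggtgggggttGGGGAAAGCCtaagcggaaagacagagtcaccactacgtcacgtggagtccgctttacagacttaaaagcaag
Sod2: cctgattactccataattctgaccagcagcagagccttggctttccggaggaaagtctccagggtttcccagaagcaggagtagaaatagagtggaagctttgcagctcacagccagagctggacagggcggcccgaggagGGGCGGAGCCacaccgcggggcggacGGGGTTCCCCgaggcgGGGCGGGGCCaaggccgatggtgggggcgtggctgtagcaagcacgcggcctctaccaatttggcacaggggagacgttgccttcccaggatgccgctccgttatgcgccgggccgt
The match in the Ptgs2 window, GGGGAAAGCC, begins 23 bases before the start. Of the Sod2 matches, GGGCGGAGCC begins 109, GGGGTTCCCC 83 and GGGCGGGGCC 67 bases before the start. The stretch GGGGTTCCCC fits GGGNNNNNCC on both strands. It is also the one match to the stricter NF-κB consensus among the 3 windows. The Ptges window held 1 loose match, GGGGGTGACC, 38 bases before its start. The Ptgs2 window also held ACGTCA, the cyclic-AMP response core TGACGT read from the other strand, its first letter 12 bases after the first base of the transcript. Of 32544 RefSeq mouse windows of the same length, 51.0% held GGGNNNNNCC, 4.53% the NF-κB consensus and 7.55% TGACGT. A match describes the letters in the window and does not show a bound site.

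**Figure D1:**
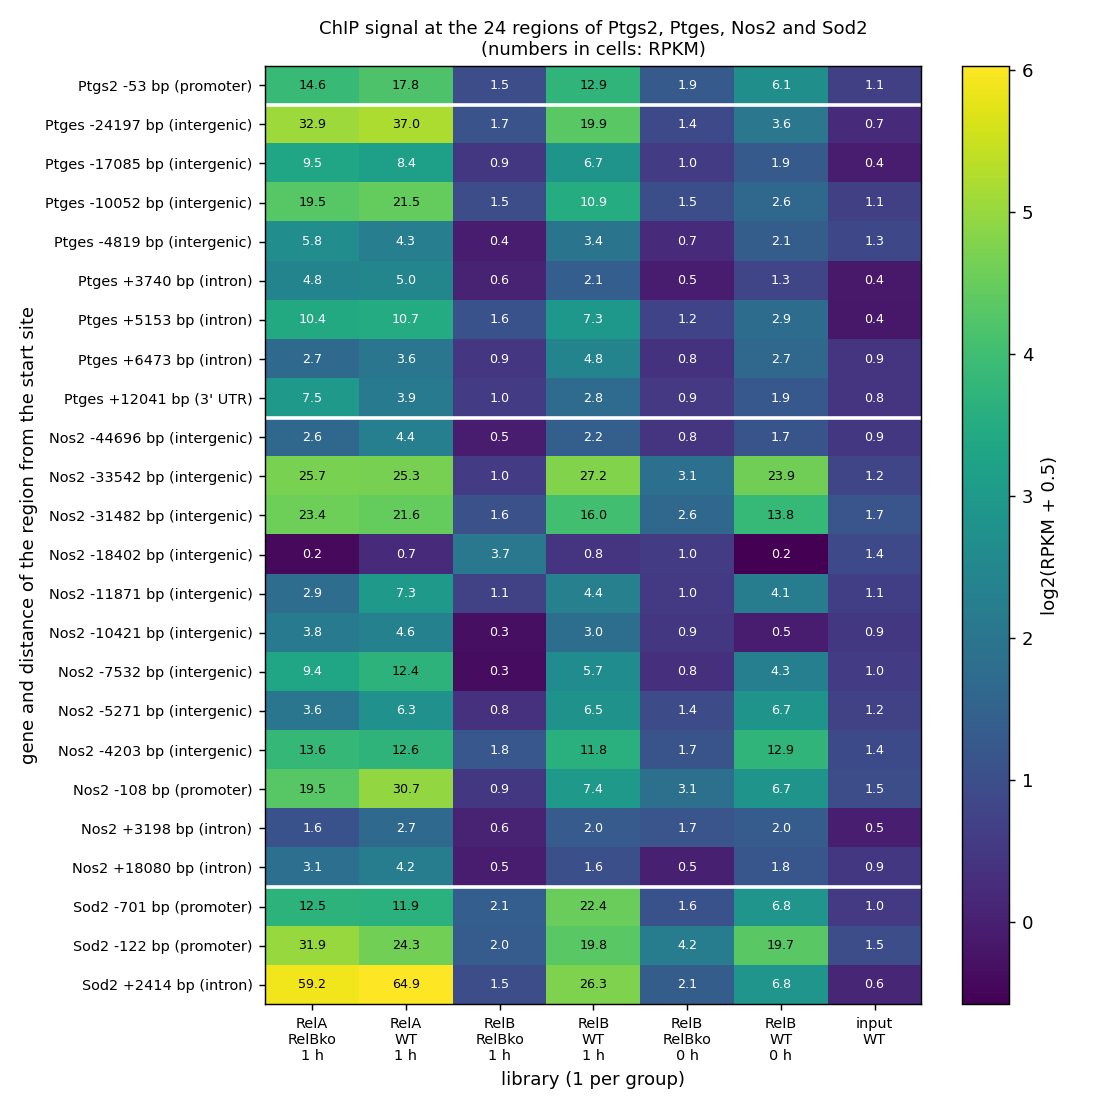
Binding (RPKM, printed in each cell and coloured by log2 of RPKM + 0.5) of the 24 regions of Ptgs2, Ptges, Nos2 and Sod2, down the page by gene and distance in bp from the transcription start site, in the 6 ChIP libraries and the input. The Sod2 intron region has the highest RelA values, 59.2 RPKM in RelBko and 64.9 RPKM in WT cells, and the RelBko RelB columns stay at or below 4.19 RPKM.

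Ptgs2 had a single region, a promoter region of 413 bp centred 53 bp upstream of the start (chr1:151946901-151947314, mm9). RelA binding there was 14.6 RPKM in RelBko cells and 17.8 RPKM in WT cells at 1 h. RelB binding was 1.49 RPKM in RelBko cells and 12.9 RPKM in WT cells at 1 h, and 1.94 RPKM in RelBko cells and 6.08 RPKM in WT cells at 0 h, with 1.10 RPKM in the input. RelA and WT RelB binding thus stood well above the input, and WT RelB binding was higher at 1 h than at 0 h. Within 100 kb of the Ptgs2 start, 8 further regions were given by the authors to neighbouring genes, among them Pla2g4a, the cytosolic phospholipase that frees arachidonic acid for Ptgs2. The region at the promoter of the non-coding Ptgs2os2, 65033 bp from the Ptgs2 start, had 43.6 RPKM of RelA in RelBko and 39.4 RPKM in WT cells.

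Ptges had no region at its start: the nearest lay 3740 bp downstream of it in an intron and 4819 bp upstream. Its strongest region, by the mean over the 6 ChIP libraries as for the other genes, lay 24197 bp upstream (chr2:30782845-30783183, mm9), between genes. RelA binding there was 32.9 RPKM in RelBko cells and 37.0 RPKM in WT cells. RelB binding was 1.67 RPKM in RelBko cells and 19.9 RPKM in WT cells at 1 h, and 1.35 RPKM in RelBko cells and 3.63 RPKM in WT cells at 0 h, with 0.673 RPKM in the input. WT RelB binding at this region was low before LPS and high after it. The next strongest, 10052 bp upstream, had the same order: 19.5 RPKM of RelA in RelBko and 21.5 RPKM in WT cells, and RelB of 1.49 RPKM in RelBko and 10.9 RPKM in WT cells at 1 h, and 1.5 RPKM in RelBko and 2.57 RPKM in WT cells at 0 h. The intron region nearest the start was weak, with 4.80 RPKM of RelA in RelBko and 4.98 RPKM in WT cells, and RelB of 0.562 RPKM in RelBko and 2.12 RPKM in WT cells at 1 h and 0.470 RPKM in RelBko and 1.25 RPKM in WT cells at 0 h. Of the rest, the intron region 5153 bp downstream had 10.4 RPKM of RelA in RelBko and 10.7 RPKM in WT cells, and RelB of 1.61 RPKM in RelBko and 7.26 RPKM in WT cells at 1 h and 1.19 RPKM in RelBko and 2.90 RPKM in WT cells at 0 h. The upstream region at 17085 bp had 9.51 RPKM of RelA in RelBko and 8.41 RPKM in WT cells, and RelB of 0.910 RPKM in RelBko and 6.66 RPKM in WT cells at 1 h and 1.02 RPKM in RelBko and 1.94 RPKM in WT cells at 0 h. Both thus had RelA at like levels in the genotypes and WT RelB that was higher at 1 h. Over all 8 regions the RelA median was 8.49 RPKM in RelBko and 6.70 RPKM in WT cells. All 8 were enriched for RelA in both genotypes, against 75.9% of all regions in RelBko and 82.0% in WT cells. For RelB in WT cells all 8 were enriched at 1 h, against 81.7% of all regions, but only 3 at 0 h, against 75.9%. Here enriched means at least 2 RPKM and at least 2-fold over the input after 0.5 RPKM was added to both.

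Nos2 had the most regions, strung over 44696 bp upstream and 18080 bp downstream of the start. The strongest lay 33542 bp upstream (chr11:78700562-78700931, mm9), with 25.7 RPKM of RelA in RelBko cells and 25.3 RPKM in WT cells. RelB binding there was 0.973 RPKM in RelBko and 27.2 RPKM in WT cells at 1 h, and 3.10 RPKM in RelBko and 23.9 RPKM in WT cells at 0 h, with 1.23 RPKM in the input. In untreated cells WT RelB was thus near its value after LPS at this region, with 1 library at each time. A companion region 31482 bp upstream had 23.4 RPKM of RelA in RelBko and 21.6 RPKM in WT cells, and RelB of 1.58 RPKM in RelBko and 16 RPKM in WT cells at 1 h and 2.64 RPKM in RelBko and 13.8 RPKM in WT cells at 0 h.

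The Nos2 promoter region, 457 bp centred 108 bp upstream of the start (chr11:78733952-78734409, mm9), had 19.5 RPKM of RelA in RelBko cells and 30.7 RPKM in WT cells. RelB binding was 0.898 RPKM in RelBko and 7.39 RPKM in WT cells at 1 h, and 3.13 RPKM in RelBko and 6.68 RPKM in WT cells at 0 h, with 1.49 RPKM in the input. In WT cells this promoter thus had more RelA than RelB on the RPKM scale. The other upstream regions within 12 kb had less RelA, from 2.92 to 13.6 RPKM in RelBko and 4.56 to 12.6 RPKM in WT cells. The one 4203 bp upstream had more WT RelB than the promoter, with RelB of 1.84 RPKM in RelBko and 11.8 RPKM in WT cells at 1 h and 1.71 RPKM in RelBko and 12.9 RPKM in WT cells at 0 h. Among them, the region 11871 bp upstream had 2.92 RPKM of RelA in RelBko and 7.33 RPKM in WT cells, and RelB of 1.15 RPKM in RelBko and 4.43 RPKM in WT cells at 1 h and 0.961 RPKM in RelBko and 4.07 RPKM in WT cells at 0 h. The region 7532 bp upstream had 9.35 RPKM of RelA in RelBko and 12.4 RPKM in WT cells, and RelB of 0.274 RPKM in RelBko and 5.72 RPKM in WT cells at 1 h and 0.763 RPKM in RelBko and 4.33 RPKM in WT cells at 0 h. The intron region 18080 bp downstream had 3.09 RPKM of RelA in RelBko and 4.20 RPKM in WT cells, and RelB of 0.455 RPKM in RelBko and 1.56 RPKM in WT cells at 1 h and 0.508 RPKM in RelBko and 1.77 RPKM in WT cells at 0 h. At none of these 3 did WT RelB differ by 2-fold between the times. A short region stood apart: that 18402 bp upstream is 168 bp long, the shortest in the table, and drew 12 reads of RelB in RelBko and 4 in WT cells at 1 h, and 3 reads in the input. Its RelA count was 1 read in RelBko and 2 reads in WT cells.

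Sod2 had the highest RelA level of the 4 genes. Its intron region, 2414 bp downstream of the start (chr17:13202926-13203312, mm9), had 59.2 RPKM of RelA in RelBko cells and 64.9 RPKM in WT cells, which put it above 98.6% and 99% of all regions in those libraries. RelB binding there was 1.46 RPKM in RelBko and 26.3 RPKM in WT cells at 1 h, and 2.07 RPKM in RelBko and 6.80 RPKM in WT cells at 0 h, with 0.589 RPKM in the input. Binding of both factors at 1 h was therefore high, and WT RelB was higher at 1 h than at 0 h. The region at the start itself, centred 122 bp upstream (chr17:13200405-13200760, mm9), had 31.9 RPKM of RelA in RelBko and 24.3 RPKM in WT cells, and RelB of 2.02 RPKM in RelBko and 19.8 RPKM in WT cells at 1 h and 4.19 RPKM in RelBko and 19.7 RPKM in WT cells at 0 h. The third region, 701 bp upstream (chr17:13199847-13200161, mm9), had 12.5 RPKM of RelA in RelBko and 11.9 RPKM in WT cells, and RelB of 2.12 RPKM in RelBko and 22.4 RPKM in WT cells at 1 h and 1.64 RPKM in RelBko and 6.81 RPKM in WT cells at 0 h. These promoter regions lie side by side, yet WT RelB was nearly level between the times at the one on the start and higher at 1 h at the one further out.

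**Figure D2:**
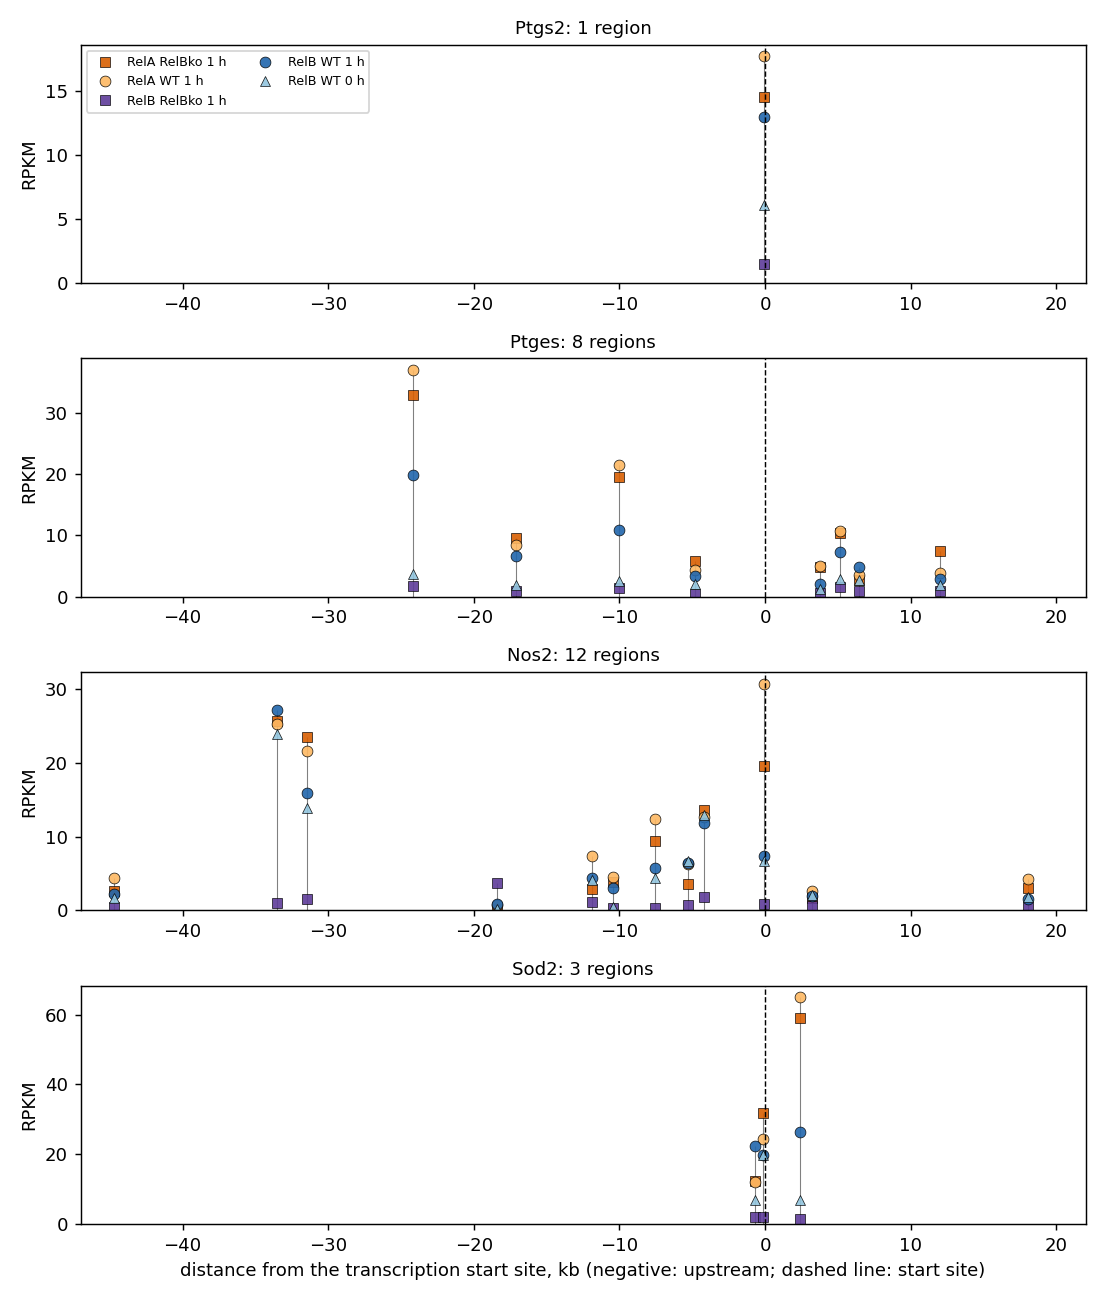
Binding (RPKM) of each region against its distance in kb from the transcription start site, 1 panel per gene, for RelA at 1 h in RelBko and WT cells and for RelB at 1 h in RelBko and WT cells and at 0 h in WT cells. The strongest regions of Ptges and Nos2 lie 24197 and 33542 bp upstream, while those of Ptgs2 and Sod2 lie at the start or 2414 bp into the gene.

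Setting RelBko against WT cells for RelA at 1 h, the median difference over these genes together was small, and the lowest median was at Nos2. Differences are log2 ratios of RPKM + 0.5, made where the region was enriched in at least 1 of both libraries, and a region is called at 2-fold or more. Ratios below are of reads scaled to library size, each with an exact 95% Clopper-Pearson interval that covers counting error only and not differences between cultures or precipitations. Of 23 regions compared, 0 were called higher in RelBko cells, against 1.3% of all regions compared, and 1 was called lower, against 4.94% of all. The median log2 difference was −0.13 over the 23 regions and −0.06 over all regions. By gene it was −0.28 for the 1 Ptgs2 region, −0.05 for Ptges, −0.39 for Nos2 and 0.06 for Sod2.

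The prostaglandin genes showed no called difference in RelA. The Ptgs2 promoter ratio of RelBko to WT was 0.820 (0.642 to 1.05), with 144 reads in RelBko and 129 reads in WT cells. The strongest Ptges region had a ratio of 0.888 (0.740 to 1.07). Both intervals include 1. The widest departure was the Ptges 3′ UTR region 12041 bp downstream, with 7.47 RPKM in RelBko and 3.92 RPKM in WT cells and a ratio of 1.91 (1.19 to 3.16), short of the 2-fold call on 65 and 25 reads. Its log2 difference was 0.85, and 1.01, past the call, when regions without enrichment were set to a median ratio of 1.

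Nos2 held the one called RelA region, 11871 bp upstream of the start. Its ratio was 0.399 (0.235 to 0.663), from 25 reads in RelBko and 46 reads in WT cells. The promoter had a ratio of 0.636 (0.527 to 0.767) on 214 reads in RelBko and 247 reads in WT cells, a log2 difference of −0.64 that does not reach the call. A region 5271 bp upstream also had an interval below 1, at 0.571 (0.336 to 0.962). The strongest Nos2 region differed little, with a ratio of 1.02 (0.828 to 1.25). Of the 11 Nos2 regions compared, 8 had a log2 difference below 0 and 3 above. Of all 80885 regions compared, 45016 lay below 0 and 35869 above. Reads summed over all 12 Nos2 regions gave a ratio of 0.819 (0.748 to 0.896). The same sum gave 0.989 (0.887 to 1.10) for Ptges and 1.02 (0.918 to 1.12) for Sod2.

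No Sod2 region was called for RelA. The region on the start had a ratio of 1.31 (1.07 to 1.61), the intron region 0.911 (0.802 to 1.03) and the outer promoter region 1.05 (0.755 to 1.46). Across all 4 genes the interval lay above 1 in 2 of the 23 regions, against 9.13% of all regions compared, and below 1 in 3, against 15% of all, shares near those of the whole table. Whether departures of this size exceed the variation between libraries of 1 genotype cannot be told from single libraries.

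**Figure D3:**
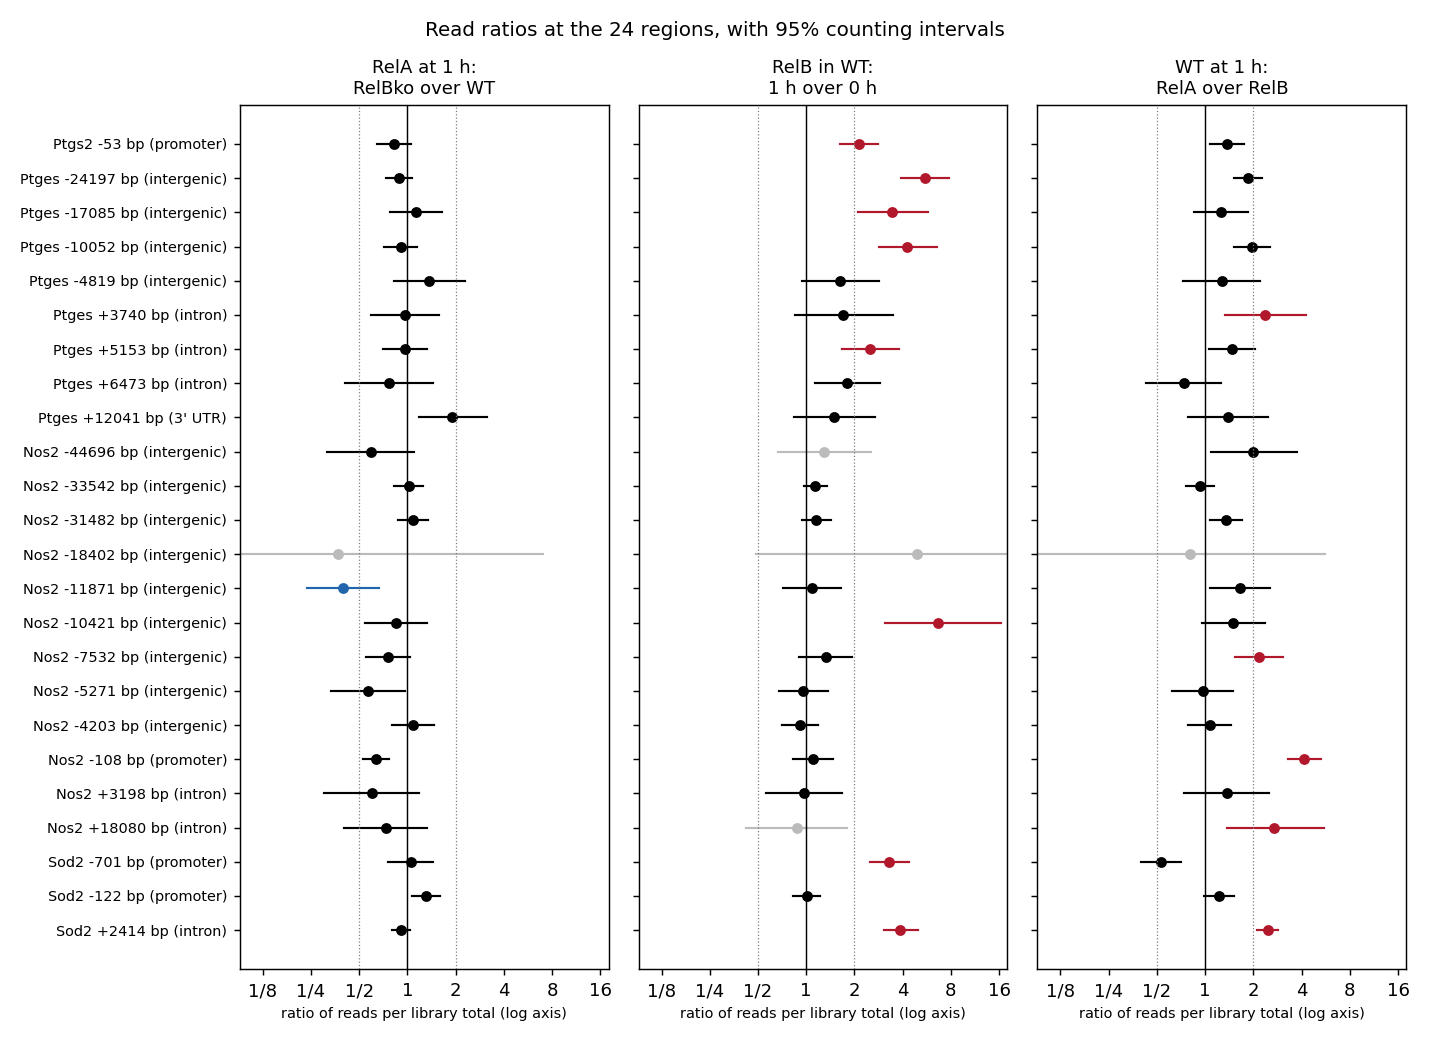
Ratio of library-scaled reads (log axis) for each region in 3 comparisons (RelA at 1 h in RelBko over WT cells, RelB in WT cells at 1 h over 0 h, and RelA over RelB in WT cells at 1 h), with exact 95% intervals for counting error. Red marks regions called higher, blue called lower, black compared and not called, grey not compared, and dotted lines mark 2-fold either way. Intervals that run past the axis are clipped. RelA in RelBko over WT cells has 1 called region, 11871 bp upstream of Nos2.

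RelB binding was far lower in RelBko than in WT cells at nearly every region of these genes and across the table. At 1 h, 20 of the 21 regions compared were called lower, against 95.9% of all regions, and 1 was called higher, against 0.128%. The 20 entered the comparison through enrichment in the WT library alone, and the 1 through the RelBko library alone. The filter thus favoured these directions, here and over the whole table, and the counts are not separate evidence of them. The median log2 difference was −2.44, and −2.47 over all regions, so the difference at these genes was close to that over the whole table. The deepest was at the strongest Nos2 region, with a ratio of 0.0358 (0.0143 to 0.0747) and 7 reads in RelBko against 285 reads in WT cells. The Ptgs2 promoter ratio was 0.115 (0.0582 to 0.207) and that of the Sod2 intron region 0.0555 (0.0274 to 0.101). The region called higher was the short one 18402 bp upstream of Nos2, with a ratio of 4.37 (1.33 to 18.6) on 12 reads in RelBko and 4 reads in WT cells. These counts rest on the authors' scaling to library size. With the median ratio of all compared regions set to 1, the shift was 2.47 on the log2 scale. Then 3 regions were called higher, against 13.7% of all regions, and 2 lower, against 17.7%.

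At 0 h, 13 of the 15 regions compared were called lower for RelB in RelBko cells, against 86% of all regions, and 0 higher, against 0.504%. All 15 were enriched in the WT library, so the filter again favoured lower calls. The median log2 difference was −1.65, and −1.85 over all regions. With the median ratio set to 1, a shift of 1.85 on the log2 scale, 1 was called higher, against 9.84% of all. None of the regions, 0, was called lower, against 15.3%. Under the authors' scaling, the 2 compared regions not called lower were both at Nos2. They were the promoter, with a ratio of 0.469 (0.290 to 0.730), and an intron region 3198 bp downstream, with 0.851 (0.421 to 1.63). In the RelBko RelB library at 0 h, 3 of the 24 regions met the enrichment rule, against 24.1% of all regions, namely the strongest Nos2 region at 3.10 RPKM, the Sod2 region on the start at 4.19 RPKM and the Sod2 intron region at 2.07 RPKM. At 1 h 1 of the 24, the short Nos2 region, did so at 3.66 RPKM, against 6.36% of all regions. The Nos2 promoter, at 3.13 RPKM in the RelBko RelB library at 0 h, missed it, being less than 2-fold over an input of 1.49 RPKM.

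In WT cells, RelB binding 1 h after LPS was higher than in untreated cells at 8 of the 21 regions compared, against 11% of all regions, and lower at 0, against 1.68%. The median log2 difference was 0.58, and 0.14 over all regions. The genes differed among themselves. Both prostaglandin genes and Sod2 held 7 of the 8 called regions, and Nos2 held 1.

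For the prostaglandin genes, the Ptgs2 promoter ratio of 1 h to 0 h was 2.13 (1.63 to 2.80), with 152 and 88 reads. Its log2 difference of 1.03 stands at the edge of the call, which ends at 0.98 with 1 RPKM added and at 0.89 with the median ratio set to 1. Ptges had 4 called regions. Its strongest region had a ratio of 5.48 (3.92 to 7.82), the region 10052 bp upstream 4.26 (2.83 to 6.57), the one 17085 bp upstream 3.43 (2.10 to 5.79) and the intron region 5153 bp downstream 2.50 (1.68 to 3.77). The other 4 Ptges regions had ratios of 1.49 to 1.79 and were not called.

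Nos2 had 1 called region. Its strongest region had a ratio of 1.14 (0.965 to 1.34) and its promoter 1.11 (0.831 to 1.47). Both intervals include 1, so no change of RelB with LPS was detectable there at this depth. A 2-fold ratio lies outside both intervals, but they cover counting error only. Variation between cultures and precipitations was not measured, so a 2-fold change is not excluded. The called Nos2 region lies 10421 bp upstream, with 3.03 RPKM at 1 h and 0.457 RPKM at 0 h and a ratio of 6.63 (3.08 to 16.3) on 43 and 8 reads. The 0 h value is below the input's 0.912 RPKM.

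The Sod2 regions differed from each other. The intron region had 3.87 (3.05 to 4.95) and the outer promoter region 3.29 (2.51 to 4.35), both called. The region on the start had 1.01 (0.831 to 1.22), whose interval does not overlap those of its neighbours. RelB at Sod2 thus differed with LPS at 2 regions and not detectably at the one that covers the start.

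Between the factors in WT cells at 1 h, RelA was called higher than RelB at 5 of the 23 regions compared, against 7.45% of all regions, and lower at 0, against 7.21%. The median log2 difference was 0.44, and −0.16 over all regions. Both values depend on how well each antibody enriched its libraries. With the median ratio set to 1, the shift was 0.16 on the log2 scale. Then 8 regions were called higher, against 9.76% of all, and 0 lower, against 4.43%. The Nos2 promoter led, with 30.7 RPKM of RelA against 7.39 RPKM of RelB and a ratio of 4.16 (3.27 to 5.32). The Sod2 intron region had 2.47 (2.12 to 2.87). The 3 others lay 18080 bp downstream of Nos2 at 2.69 (1.37 to 5.49), 3740 bp downstream of Ptges at 2.35 (1.32 to 4.25) and 7532 bp upstream of Nos2 at 2.17 (1.54 to 3.08). The calls on the Ptges region and on the last Nos2 region end with 1 RPKM added. The strongest Nos2 region had a ratio of 0.930 (0.763 to 1.13), and the outer Sod2 promoter region leaned to RelB, at 0.533 (0.397 to 0.708), without reaching the call. This comparison and those of RelB by genotype and by time at 1 h share the WT RelB library at 1 h, so their values are not independent. RelA over RelB also shares the WT RelA library with RelA by genotype. Both Nos2 promoter ratios with RelA thus rest on the same WT RelA value of 30.7 RPKM.

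Another 3 lists of genes that work beside these enzymes were read at each gene's strongest region: 23 measured of 24 genes of eicosanoid metabolism, 13 of 16 of nitric oxide and arginine metabolism and 26 of 28 that make or remove reactive oxygen. For RelA in RelBko over WT cells, 0 of 22, 13 and 26 compared genes were called in either direction, against 0.498% higher and 2.85% lower of all genes at their strongest region. The median log2 differences were −0.02, −0.05 and 0.05, and −0.01 over all genes. By the mean over the 6 ChIP libraries, the highest of the eicosanoid list were Pla2g4a, at 83.4 RPKM of RelA in RelBko and 82.0 RPKM in WT cells, and Ltc4s, which makes leukotriene C4, at 47.2 RPKM in RelBko and 45.9 RPKM in WT cells. Of the nitric oxide list they were Spr, which completes tetrahydrobiopterin, at 33.1 RPKM in RelBko and 41.6 RPKM in WT cells, and Ass1, which helps remake arginine, at 28.4 RPKM in RelBko and 29.4 RPKM in WT cells. Of the reactive oxygen list they were Nfe2l2, a transcription factor of antioxidant genes, at 77.6 RPKM in RelBko and 87.5 RPKM in WT cells, and Ncf4, a subunit of the phagocyte oxidase, at 74.9 RPKM in RelBko and 72.7 RPKM in WT cells. Of these 6 genes, Spr at 0.794 (0.668 to 0.945) and Nfe2l2 at 0.887 (0.796 to 0.988) had RelBko to WT ratios whose intervals lay below 1. For RelB at 1 h, all 21, 12 and 26 compared genes were called lower in RelBko cells, against 97.9% of all genes, and 0 higher, against 0.0837%, with medians of −3.41, −3.13 and −3.51, and −2.85 over all genes. At 0 h, 20 of 22, 12 of 12 and 24 of 26 were called lower, against 85.7%, and 0 higher, against 0.179%, with medians of −2.42, −2.41 and −2.70, and −1.99 over all genes.

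WT RelB was called higher at 1 h than at 0 h at 1 of 22 eicosanoid genes, 1 of 12 nitric oxide genes and 2 of 26 reactive oxygen genes, against 6.58% of all genes, and 0 were called lower, against 1.09%. The median log2 differences were 0.10, 0.30 and 0.11, and 0.15 over all genes. Those called were Alox5ap, which presents arachidonic acid to 5-lipoxygenase (30.1 RPKM at 1 h and 12.8 RPKM at 0 h), and Gch1, which starts the synthesis of the Nos2 cofactor tetrahydrobiopterin (50.8 RPKM at 1 h and 13.5 RPKM at 0 h at its promoter). The remaining pair were the superoxide-producing oxidase Nox1 (22.5 RPKM at 1 h and 9.97 RPKM at 0 h) and the quinone reductase Nqo1 (17.7 RPKM at 1 h and 3.06 RPKM at 0 h). RelA was called above RelB in WT cells at 2 of 22 eicosanoid, 1 of 13 nitric oxide and 0 of 26 reactive oxygen genes. The share of all genes was 6.66%. RelA was called lower at 0 genes of the lists, against 5.41% of all genes. The eicosanoid genes were Ptger1, a prostaglandin E2 receptor (25.6 RPKM of RelA and 2.54 RPKM of RelB), and the second prostaglandin E synthase Ptges2 (24.4 RPKM of RelA and 9.88 RPKM of RelB). The nitric oxide gene was the arginine carrier Slc7a2 (37.5 RPKM of RelA and 15.4 RPKM of RelB). The medians were −0.13, 0.04 and −0.21, and −0.10 over all genes.

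The genes whose strongest region had levels most like each enzyme's over the 6 ChIP libraries were found by the root mean square difference in log2 of RPKM + 0.5. Nos2 had the closest match, Slc1a5 at 0.0726, followed by 4930597G03Rik at 0.0990 and Itsn2 at 0.125. Ptgs2 was nearest to Cd2 at 0.145, Bcam at 0.164 and Pdlim1 at 0.172. Ptges was nearest to Atp6v1e2 at 0.264, Jmjd1c at 0.271 and Rab34 at 0.291. Sod2 had the widest distances of the 4, to Ece1 at 0.396, Pnpla1 at 0.429 and Dusp14 at 0.455. The measure covers 18210 genes, and the libraries it compares share their depth and antibodies across genes.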

How the data were processed

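The authors deposited 1 table of RPKM values for 93611 regions, with 1 column for each of the 7 libraries and the nearest gene, distance and annotation of each region. Per the submitters' processing notes HISAT2, HOMER and bedtools were used with mouse build mm9, with settings not given in the sources used here. Per the labels' antibody field the RelB libraries were made with an anti-RelB antibody, though the protocol text names anti-RelA alone. Whether the table's start positions count from 0 or 1 is not stated, and they are printed as deposited. RPKM times region length was a whole multiple of 1 read in 100% of values (within 0.01 read), so reads and library totals were recovered. No value was below 1 read, and 1 read may have been added to each count.

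From these, log2 ratios of RPKM + 0.5, calls at 2-fold, and exact Clopper-Pearson intervals at 95% were computed over all regions with Python 3.11.15, pandas 2.3.3, numpy 2.4.6 and scipy 1.17.1, and checked on simulated data. With 1 library per group no p-value was computed. Every region of the 4 genes is accounted for, and given in full were each gene's region of highest mean, that nearest the start and those called for RelA by genotype, RelB by time or RelA against RelB (up to 6 per comparison by mean RPKM). Of each list the 2 genes of highest mean RPKM and those called were named, and of genes most alike 3 per enzyme. The RelBko RelB regions of low count, the Ptges 3′ UTR region and the neighbours of Ptgs2 were named after their values were seen. The members and lists were chosen with earlier results of these data known. The alternatives were other pseudocounts, filters, scalings, a 1.5-fold call, a 10 kb window, input subtraction and 1 read taken off.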

Additional observations from a re-analysis of the deposited data

Results flagged for a closer look

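At the region 10421 bp upstream of Nos2, the RelB values lay on opposite sides of 1 in the genotypes and at the times. RelB reads at 1 h over 0 h, scaled to library size, had a ratio of 0.336 (0.0575 to 1.40) in RelBko cells and 6.63 (3.08 to 16.3) in WT cells. The same reads give RelBko over WT ratios of 0.102 (0.0202 to 0.318) at 1 h and 2.01 (0.656 to 6.13) at 0 h. The RelBko ratio over time and the 0 h ratio between genotypes have intervals that include 1, so an opposite move is not shown. They rest on 3 reads in RelBko and 43 in WT cells at 1 h, and on 8 in RelBko and 8 in WT cells at 0 h. The region was enriched for RelB in WT cells at 1 h alone among these 4 libraries. The difference between the genotypes was not tested, since each condition is 1 library.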

How the results depend on the processing

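Of 1030 values of single regions recomputed under 10 alternatives, 34 changed sign: 26 with the median ratio of compared regions set to 1, of which 17 had been called, and 8, none of them called, with that of unenriched regions set to 1. The first setting removes the table-wide RelB difference between genotypes by construction. Under it, among called values, the RelB log2 differences (RelBko over WT) at 1 h became 0.028 for the median of the regions. At 1 h they became 1.31, 0.52, 0.58 and 1.16 for Ptges 12041, 6473, 5153 and 3740 bp downstream, and 0.43 and 0.12 for Ptges 4819 and 17085 bp upstream. For Nos2 they were 0.88, 0.34, 0.028 and 0.073 at 11871, 10421, 5271 and 4203 bp upstream. At 0 h they became 0.21 for the median, 0.42 for Ptgs2, 0.21 for Nos2 11871 bp upstream, and 0.079 and 0.35 for Sod2 701 bp upstream and 2414 bp downstream. Those of Ptges became 0.58, 0.85 and 0.70 at 6473 and 5153 bp downstream and 24197 bp upstream. With this scaling, RelB calls were 3 higher and 2 lower at 1 h, against 13.7% and 17.7% of all regions. At 0 h RelB calls were 1 higher and 0 lower, against 9.84% and 15.3%. RelA over RelB calls were 8 higher, against 9.76%. With unenriched regions set to a median ratio of 1, RelA by genotype had 1 region called higher, against 2.49% of all regions. RelB by genotype had 17 lower at 1 h, against 79.4%, and 10 lower at 0 h, against 69.5%. A 1.5-fold call gave 1 higher and 5 lower for RelA by genotype, and 9 higher and 1 lower for RelA over RelB. The higher RelA region by genotype was at Ptges and the 5 lower were all at Nos2. Shares of all regions were not computed for this call or for the counts that follow. Whether these counts, or those at Nos2, differ from the whole table was therefore not tested. With 1 RPKM added, RelA over RelB had 3 higher. With enrichment at 4 RPKM, 0 were higher for RelB by genotype at 1 h, and with no filter 1 was higher at 0 h. Within 10 kb, fewer regions were counted: 0 lower for RelA by genotype, 0 higher and 12 lower for RelB by genotype at 1 h, and 4 higher for RelB by time. The Nos2 promoter difference in RelB at 0 h passed the call at −1.07 with 0.1 RPKM added. Region counts of 2 to 14 reads in the RelBko RelB library at 1 h limit every ratio to it. No paired analysis was possible because each group has 1 library.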

Other observations

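Within the RelBko RelB libraries, where RelB itself is labelled as lost, reads at 1 h over 0 h gave ratios whose intervals lay below 1 at 4 of the 24 regions, against 19.7% of all regions. They were 0.287 (0.112 to 0.656) at the Nos2 promoter, 0.314 (0.112 to 0.773) at the strongest Nos2 region, 0.320 (0.0903 to 0.941) at the Nos2 intron region 3198 bp downstream and 0.483 (0.233 to 0.959) at the Sod2 region on the start. RelB reads in these regions numbered 8, 7, 5 and 14 at 1 h, against 25, 20, 14 and 26 at 0 h. Reads in all regions made up 4.62% of the RelBko RelB library at 1 h and 7.41% of that at 0 h, and the part of this table-wide difference in the 4 ratios was not tested.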
